A study of Rattus norvegicus with 24 samples.

Results

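Growth hormone (GH) and the insulin-like growth factor (IGF) system were followed in primary rat hepatocytes, through 10 listed genes: Igf1, Igfals, Igfbp1, Igfbp2, Igfbp4, Ghr, Socs2, Insr, Irs1 and Irs2. The genes were taken by name, and the platform annotation gave them 14 of 31042 tested probe sets, each assigned to 1 gene alone. Igf1 had 3 probe sets, Ghr and Insr had 2 each, and the other 7 genes had 1 each. These are 10 of 14217 genes with a named probe set.

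The hepatocytes lay between layers of collagen. For 24 h they received a designer drug built on piperazine, 1 of 4 in all, or the solvent alone. BZP (benzylpiperazine) was used at 625 µM, TFMPP (trifluoromethylphenylpiperazine) at 35 µM, MeOPP (methoxyphenylpiperazine) at 522 µM and MDBP (methylenedioxybenzylpiperazine) at 467 µM, each concentration being called the EC20 in the labels. Each drug had 3 treated samples, and each treated sample had its own named control with 0.1% DMSO, which made 8 groups of 3 and 12 pairs. The origin of the samples in separate animals or cultures, the strain, sex and age of the rats, and the hormones in the culture medium are not given in the sources used here, so the p-values rest on the spread of these samples, which may be technical.

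In the liver, GH binds its receptor Ghr and acts through the kinase Jak2 and the transcription factor Stat5b, which raise Igf1 and Igfals, while Socs2 dampens the signal. IGF1 leaves the hepatocyte and circulates bound to IGF-binding proteins, and the long-lived complex also holds the acid-labile subunit encoded by Igfals. Insulin acts through its receptor Insr and the docking proteins Irs1 and Irs2, and restrains FOXO factors, which switch on genes such as Igfbp1.

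All arrays were alike in level, with medians of 4.45 to 4.52 on the log2 scale of RMA, the authors' normalization. Hepatocyte markers were bright: Alb, which encodes albumin, averaged 14.06 and Ttr, which encodes transthyretin, averaged 13.07. The mean level of 9 hepatocyte markers was 12.17 to 12.62 in DMSO and 11.8 to 12.37 with drug, and it was higher with drug in 0 of 12 pairs. In the mean of the drugs, 5 of these 9 markers fell and 0 rose in limma (6 had an unadjusted p under 0.05). Over all genes 11.9% fell and 18.0% rose in that mean. The mean level of 7 Kupffer cell and leukocyte markers was 5.02 to 6.38 in DMSO and 4.78 to 6.13 with drug, higher with drug in 1 of 12 pairs, and 4 of the 7 averaged under 5. Stellate cell and fibroblast markers (8) lay at 4.85 to 5.72 and 4.89 to 5.81, sinusoidal endothelial markers (5) at 3.99 to 5.95 and 3.98 to 5.86, and cholangiocyte markers (4) at 4.56 to 4.9 and 4.55 to 4.78. Each of these 4 lists held both dim and brighter markers, from Ptprc at 3.36 to Cd14 at 10.0 in the first, Col1a1 at 4.18 to Dcn at 8.07 in the second, Vwf at 3.07 to Lyve1 at 7.38 in the third and Krt7 at 2.91 to Epcam at 8.12 in the last. In the mean of the drugs Cd68 rose, by 0.45, and Clec4f (-0.48), Cd14 (-0.41), Csf1r (-0.41) and Cd5l (-0.33) fell among the Kupffer cell and leukocyte markers. Of the stellate markers Dcn rose, by 0.18, and Col3a1 fell, by -0.68. None of the endothelial and cholangiocyte markers passed in limma, with 1 and 0 at an unadjusted p under 0.05. The part of these markers in the results below was not tested, and in such bulk samples fewer cells of a type and less RNA per cell cannot be told apart. The 12 DMSO arrays fell by clustering into 5 sets, called preparations here, which the labels do not name. All 4 pairs numbered 1 lay in preparation 1. The pairs numbered 2 lay in preparation 2, except that of MDBP, which made up preparation 5. The pairs numbered 3 lay in preparation 3 for BZP and MDBP and in preparation 4 for TFMPP and MeOPP.

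Averaged over the 4 drugs, Igf1 fell on all 3 probe sets, Ghr and Insr each fell on 1 of 2, and Irs2 rose. The other probe sets of Ghr and Insr stood at 0.02 and 0.01. With probe sets averaged, neither of these 2 genes passed (limma adjusted p = 0.134 and 0.205). The binding proteins Igfbp1, Igfbp2 and Igfbp4 and the low genes Igfals and Socs2 did not pass the test. The deepest change was that of Igf1, at a log2 difference of -0.87 ± 0.08 (SE over 12 pairs; 1.83-fold lower) on probe set 1388469_at. Irs2 rose by 0.46 ± 0.07 (1.38-fold). Each gene is counted by its brightest probe set, so Igf1 is counted by 1370333_a_at, the least changed of its 3. Counted so, 1 of 10 members rose and 3 fell in the mean of the drugs, and over all 14217 genes 18.0% rose and 11.9% fell. The members' median change was -0.08, against 0.012 over all genes. A change was called at a limma p under 0.05 after Benjamini-Hochberg adjustment over all probe sets.

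By drug, far fewer members passed. BZP gave 1 higher (Irs2) and 1 lower (Ghr) of the 10, against 6.66% and 5.96% of all genes. TFMPP gave 1 higher (Irs2), against 0.872%, and 0 lower, against 1.71%, with 3 of 10 at an unadjusted p under 0.05 in limma. MeOPP gave 1 lower (Insr), against 4.52%, and 0 higher, against 3.45%, again with 3 at an unadjusted p under 0.05. MDBP gave 0 in either direction, against 4.68% higher and 5.05% lower, and 2 at an unadjusted p under 0.05 in limma. These shares are near the background at this number of members, so nothing is read from these counts about the members. Without the pair terms, 0 members passed with any drug or in the mean in limma, where 24 (BZP), 1 (TFMPP), 9 (MeOPP) and 21 (MDBP) of the 14217 genes passed by drug and 1218 in the mean, and unadjusted p-values under 0.05 were found for 1 member with MeOPP and 0 elsewhere.

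**Figure D1:**
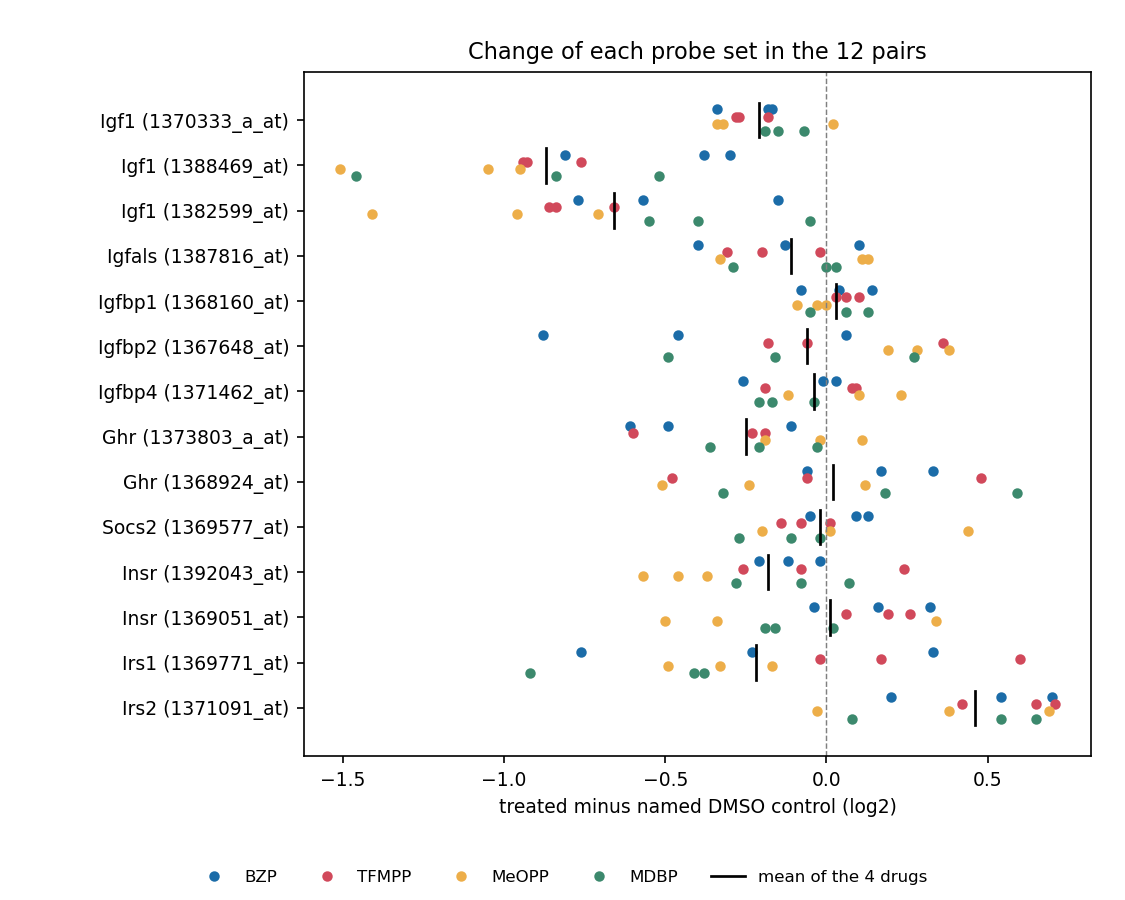
Treated minus named DMSO control on the log2 scale (x axis) for each of the 14 probe sets (y axis), with 1 point per pair coloured by drug and a black bar at the mean of the 4 drugs. Igf1 probe sets 1388469_at and 1382599_at lie left of 0 in all 12 pairs and Irs2 lies right of 0 in 11, while Igfbp1 stays between -0.09 and 0.14.

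Igf1, the growth factor that mediates much of the action of GH, was lower than its own control in 12 of 12 pairs on probe set 1388469_at. With BZP the log2 level went from 5.96 to 5.66 in pair 1, from 8.3 to 7.49 in pair 2 and from 6.71 to 6.33 in pair 3. With TFMPP it went from 6.19 to 5.43, from 8.26 to 7.32 and from 6.99 to 6.06. With MeOPP it went from 6.8 to 5.29, from 8.46 to 7.5 and from 6.64 to 5.59. The treated and DMSO groups overlapped for these 3 drugs. With MDBP the level went from 6.99 to 5.52, from 7.77 to 6.93 and from 6.83 to 6.3, and the groups overlapped there too. The fall was deepest in the first pairs of MeOPP and MDBP and shallowest in the first pair of BZP, which all belong to preparation 1. In that preparation the treated levels lay between 5.29 and 5.66 and the DMSO levels between 5.96 and 6.99. The DMSO level is part of the change itself, so nothing is read from this order.

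On this probe set Igf1 fell with TFMPP by -0.88 ± 0.15 (SE, n = 3 pairs; 1.84-fold lower; limma adjusted p = 0.00617), with MeOPP by -1.17 ± 0.15 (2.25-fold; adjusted p = 0.000204) and with MDBP by -0.94 ± 0.15 (1.92-fold; adjusted p = 0.00117). The value with BZP was -0.49 ± 0.15 and did not pass (adjusted p = 0.0538), but passed with quantile normalization repeated (0.0336), among probe sets with a mean of at least 5 (0.038) and with a robust, trended prior (0.0474). The adjusted p of the mean of the drugs was 4.71e-07, and 0.196 without the pair terms. The means of the 5 preparations lay between -1.01 and -0.45, all below 0. The call with TFMPP was lost without pair 2 (0.0704) and without pair 3 (0.0787), and those with MeOPP and MDBP kept adjusted p-values of at most 0.00665 and 0.0165 when any 1 pair of the drug was left out.

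Probe set 1382599_at of Igf1 was also lower in 12 of 12 pairs. Its levels were dim, from 3.65 to 5.49 in DMSO (median 4.04) and from 2.56 to 4.52 with drug (median 3.7). The treated and DMSO groups overlapped here too, and the lowest value of all was the first MeOPP sample. It fell by -0.50 ± 0.14 with BZP (limma adjusted p = 0.0335), -0.79 ± 0.14 with TFMPP (0.00676) and -1.03 ± 0.14 with MeOPP (0.00027), and stood at -0.33 ± 0.14 with MDBP (0.189). The mean was -0.66 ± 0.07 (adjusted p = 3.4e-06, or 0.182 without the pair terms), with preparations from -0.86 to -0.05. The BZP call was lost without pair 1 (0.13) or pair 2 (0.234) of BZP, and the TFMPP call without pair 1 (0.0829) or pair 2 (0.0728) of TFMPP.

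The brightest Igf1 probe set, 1370333_a_at, changed least. In DMSO it lay between 9.27 and 10.99 (median 10.25), and with drug between 9.0 and 10.65 (median 10.06). It was lower in 11 of 12 pairs, the third MeOPP pair standing at 0.02, and its mean was -0.21 ± 0.05 (1.15-fold lower; adjusted p = 0.00331, or 0.768 without the pair terms). It did not pass with any single drug, with values from -0.24 to -0.14. The probe sets thus gave changes of different size for the same gene: 1388469_at was lower than 1370333_a_at by -0.67 ± 0.37 (SD, n = 12 pairs) in all 12 pairs (two-sided exact sign-flip permutation p = 0.000488, the smallest that 12 pairs can give; 0.00244 after adjustment over 5 such tests). Probe set 1382599_at was lower than 1370333_a_at in 10 of 12 pairs, by -0.45 ± 0.32 (exact permutation p = 0.00195, adjusted 0.00488). These permutation tests, that of Insr below, and the limma fit throughout count the 12 pairs as independent. The pairs fall into 5 inferred preparations, so all these p-values may be too small. With 1 value per preparation, 5 of 6 probe set values called in the mean stayed called, all but that of Insr. The limma adjusted p of Igf1 was then at most 0.000274 on 1388469_at, 0.0142 on 1382599_at and 0.0494 on 1370333_a_at. The difference of 3' and 5' control probe sets of actin and GAPDH, a sign of RNA quality, changed between -0.17 and 0.38 in a pair and was higher with drug in 7 of 12, and its part in the gap between probe sets was not tested. When the 3 probe sets were averaged, Igf1 fell with each drug, by -0.41 ± 0.11 with BZP (adjusted p = 0.0233), -0.64 ± 0.11 with TFMPP (0.00675), -0.80 ± 0.11 with MeOPP (0.000483) and -0.47 ± 0.11 with MDBP (0.0138).

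The starting level of Igf1 differed between the inferred preparations, which were themselves found from all probe sets of these arrays, so this is a description. On 1370333_a_at the DMSO arrays averaged 9.41 in preparation 1 and 10.91 in preparation 2, with preparations 3, 4 and 5 at 10.18, 10.4 and 10.21. The 4 DMSO arrays of preparation 1 (9.27 to 9.56) lay below all others, and the 3 of preparation 2 (10.83 to 10.99) above all others, while preparations 3, 4 and 5 lay within 10.07 to 10.41. On 1388469_at preparation 1 was again lowest, at 6.48, and preparation 2 highest, at 8.34. Over the 12 DMSO arrays the 3 probe sets correlated at 0.83 to 0.89, a description in which arrays of 1 preparation are not independent. The genes closest to Igf1 (1370333_a_at) in DMSO level, among 8607 genes with a mean of at least 5, were Smim14 (Pearson r = 0.986, 12 arrays), Cyp2c13 (0.983) and Cyp2c11 (0.976). In the 12 pair differences the closest were Znf780b (r = 0.78), Msi2 (0.752) and Spcs1 (0.751), where drug and preparation are both shared. A correlation leaves out the mean change, which was -0.03 ± 0.05 for Znf780b, -0.38 ± 0.08 for Msi2 and 0.1 ± 0.04 for Spcs1.

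Ghr, the GH receptor, was lower in 11 of 12 pairs on probe set 1373803_a_at. The level went from 7.37 to 7.26, from 8.11 to 7.5 and from 8.57 to 8.08 with BZP, and from 7.21 to 6.61, from 7.87 to 7.64 and from 7.85 to 7.66 with TFMPP. With MeOPP it went from 7.67 to 7.49, from 7.64 to 7.75 and from 7.92 to 7.9, and with MDBP from 7.21 to 7.18, from 7.7 to 7.49 and from 8.46 to 8.1. The second MeOPP pair alone was higher, and treated and DMSO groups overlapped with every drug. Ghr fell by -0.25 ± 0.06 in the mean (1.19-fold lower; limma adjusted p = 0.00504, or 0.535 without the pair terms), with preparations from -0.42 to -0.11. By drug it fell with BZP, by -0.40 ± 0.12 (adjusted p = 0.0371), a call lost without pair 2 (0.235) or pair 3 (0.194). The values were -0.34 with TFMPP, -0.20 with MDBP and -0.03 with MeOPP (95% interval -0.28 to 0.21). The other Ghr probe set, 1368924_at, was dim, at 3.18 to 4.11 in DMSO and 2.68 to 4.29 with drug, and stood at 0.02 ± 0.09 in the mean (adjusted p = 0.923). Averaged over both, Ghr stood at -0.11 ± 0.05 (adjusted p = 0.134).

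Insr, the insulin receptor, fell on probe set 1392043_at, by -0.18 ± 0.05 in the mean (1.13-fold lower; limma adjusted p = 0.0209) and in 10 of 12 pairs. This call was lost without the pair terms (0.331), with 1 value per preparation (0.156), without pair 1 of TFMPP (0.064) and without pair 1 of MDBP (0.053). The fall with MeOPP was -0.47 ± 0.10 (1.38-fold; adjusted p = 0.0129), from 7.14 to 6.68, from 7.01 to 6.64 and from 6.55 to 5.98, and the adjusted p was 0.0801 without pair 1 and 0.0961 without pair 3. The treated and DMSO groups of MeOPP overlapped, the third DMSO sample lying below the first 2 treated ones. The other drugs gave -0.12 (BZP), -0.03 (TFMPP) and -0.09 (MDBP), none of which passed. Probe set 1369051_at, at 4.83 to 5.58 in DMSO and 4.82 to 5.42 with drug, stood at 0.01 ± 0.07 in the mean (adjusted p = 0.95), and the pair changes of 1392043_at minus those of 1369051_at were -0.19 ± 0.28 (SD, n = 12; exact permutation p = 0.022, adjusted 0.0367). Averaged over both probe sets, Insr stood at -0.08 ± 0.05 in the mean (adjusted p = 0.205) and at -0.32 ± 0.09 with MeOPP (0.0539), and neither passed.

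Irs2, a docking protein that links the insulin receptor to PI3 kinase, was the member that rose. With BZP its level went from 9.7 to 9.89, from 8.11 to 8.81 and from 8.38 to 8.93, and with TFMPP from 9.48 to 10.19, from 8.34 to 8.76 and from 8.79 to 9.44. With MeOPP it went from 9.14 to 9.84, from 8.49 to 8.46 and from 8.72 to 9.1, and with MDBP from 9.22 to 9.31, from 8.28 to 8.81 and from 8.33 to 8.99. The level was higher with drug in 11 of 12 pairs, the second MeOPP pair being the exception, and groups overlapped with every drug. Irs2 rose by 0.46 ± 0.07 in the mean (limma adjusted p = 0.00013, or 0.289 without the pair terms), with preparations from 0.36 to 0.60. It rose by 0.48 ± 0.14 with BZP (adjusted p = 0.0404) and by 0.59 ± 0.14 with TFMPP (0.0401), and stood at 0.35 ± 0.14 with MeOPP (0.184) and 0.43 ± 0.14 with MDBP (0.0827). The call with BZP was lost without pair 2 (0.234) or pair 3 (0.181), that with TFMPP without any 1 of its pairs (0.115 to 0.298), and MDBP passed without its pair 1 (0.0419). In DMSO, preparation 1, which had the least Igf1, had the most Irs2, with a mean of 9.38 against 8.28 to 8.76 in the other 4.

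**Figure D2:**
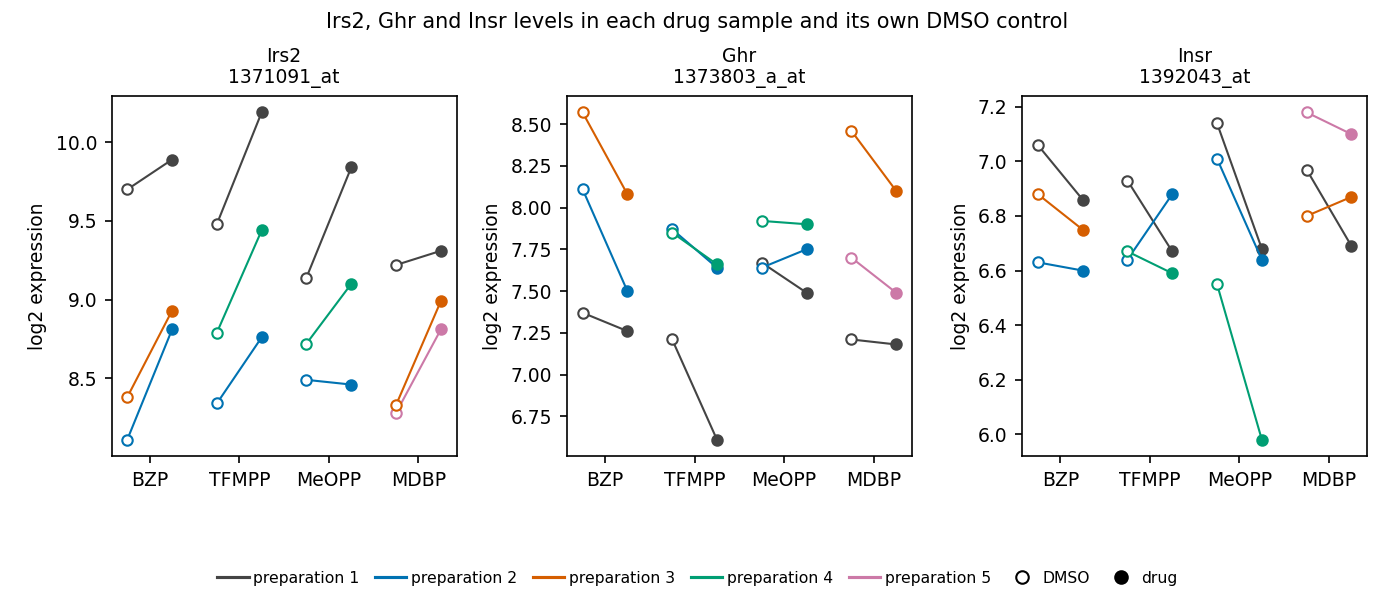
Log2 expression (y axis, a range of its own in each panel) of Irs2, Ghr and Insr on their brightest probe sets, with an open point for each DMSO control joined to its drug sample and colours for the 5 inferred preparations. Irs2 lines rise in 11 of 12 pairs, Ghr lines fall in 11 and Insr lines fall in 10.

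Irs1, the other main docking protein, was dim and scattered, from 3.66 to 4.63 in DMSO (median 4.29) and from 3.39 to 4.95 with drug (median 3.86). It was lower in 9 of 12 pairs, with pair changes from -0.92 to 0.60, and its mean of -0.22 ± 0.08 did not pass (limma adjusted p = 0.0763). Leaving out pair 1 of BZP brought it past the threshold (0.0113), as did leaving out pair 3 of TFMPP (0.0444). With MDBP it went from 4.57 to 4.18, from 4.52 to 3.6 and from 4.32 to 3.91. The treated and DMSO groups did not overlap here. The share of all genes without overlap is not given, so nothing is read from this. The Irs1 difference with MDBP was -0.57 ± 0.17 (limma adjusted p = 0.0516). It passed with the arrays of MDBP alone (0.038) and with a robust, trended prior (0.0469). The highest treated values were BZP sample 1 and TFMPP samples 1 and 3.

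Igfbp1, the binding protein that hepatocytes make in fasting and restrain under insulin, was among the brightest transcripts on the array, with 9 of 31042 probe sets above it. Its level was 13.1 to 13.43 in DMSO (median 13.25) and 13.15 to 13.44 with drug (median 13.3). No sample stood apart and the groups overlapped with each drug. The mean change was 0.03 ± 0.04 (95% interval -0.06 to 0.12; limma adjusted p = 0.738). The highest value of any probe set was 14.1, and RMA compresses changes of very bright probe sets. A change of Igfbp1 could therefore be understated, and the narrow interval does not show that it was unchanged. Its pair changes, between -0.09 and 0.14, correlated best with those of Hsp90b1 (r = 0.897), Adgrg2 (0.871) and Lmo4 (0.866), over 12 pairs that share drugs and preparations. Such a correlation leaves out the mean change, which was -0.47 ± 0.09 for Hsp90b1, -0.22 ± 0.08 for Adgrg2 and -0.04 ± 0.06 for Lmo4.

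The promoter windows of RefSeq (build GRCr8), which run from 250 bases before to 50 after 1 transcript start per gene, held 8 of the 10 members, all but Socs2 and Irs2. In Igf1, Igfals, Ghr and Insr this start lies inside the annotated gene, so other starts of these genes were not searched. They were searched on both strands for the FOXO-type letters GTAAACA and CAAAACA, which can share bases and stood together in some windows, and for the STAT5-type letters TTCNNNGAA. A FOXO-type match lay in Igfbp1, Igf1 and Insr, 3 of the 8. Of 33469 windows of the same length, 9.64% held either, 3.78% GTAAACA and 6.28% CAAAACA. None of the 8 windows held TTCNNNGAA, which 8.87% of all windows did. A match is a description of letters, and no binding was measured. The stretches are shown because these 3 members hold the letters, and of them Igf1 and Insr fell in the mean of the drugs while Igfbp1 did not pass. Each is written along its gene's strand, with the match in capitals. Igfbp1 lies at chr14:86261027-86261276 on the plus strand and is given as the 250 bases before the start. Igf1 lies at chr7:24172454-24172483 on the plus strand and Insr at chr12:6128885-6128914 on the minus strand, each given as 30 bases around the match, which in Insr reads GTAAACA on the other strand.
Igfbp1: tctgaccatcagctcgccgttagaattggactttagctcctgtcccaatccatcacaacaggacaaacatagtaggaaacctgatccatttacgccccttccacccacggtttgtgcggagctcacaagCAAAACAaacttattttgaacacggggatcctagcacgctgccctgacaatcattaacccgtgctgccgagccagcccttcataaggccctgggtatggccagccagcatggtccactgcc
Igf1: aaccccacccaCAAAACAacacatgttctt
Insr: acgggccgcgtTGTTTACtggccggagtcg

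Igfbp2, a binding protein of fetal and fasting liver, had values of both signs, none of which passed. With BZP its level went from 8.91 to 8.45, from 8.03 to 8.09 and from 9.72 to 8.84, and with MeOPP from 8.41 to 8.79, from 7.92 to 8.12 and from 7.4 to 7.68. It was higher in all 3 pairs of MeOPP and lower in 2 of 3 of BZP. With TFMPP it went from 8.77 to 8.71, from 8.54 to 8.36 and from 7.4 to 7.76, and with MDBP from 8.3 to 8.58, from 8.39 to 7.9 and from 9.3 to 9.14. The changes were -0.43 ± 0.16 with BZP (limma adjusted p = 0.113) and 0.29 ± 0.16 with MeOPP (0.378), and BZP passed only without its pair 2 (-0.67; adjusted p = 0.0293). The mean was -0.06 ± 0.08 (adjusted p = 0.7), in 6 pairs higher and in 6 lower. Both preparation 3 pairs (BZP and MDBP), which started highest (DMSO mean 9.51), were lower with drug. Both preparation 4 pairs (TFMPP and MeOPP), which started lowest (7.4), were higher. Drug and preparation cannot be told apart there. The DMSO level is also part of the change itself, so nothing is read from this pattern.

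Igfbp4, a binding protein that inhibits IGF action, lay between 7.07 and 7.48 in DMSO and between 7.05 and 7.49 with drug, and changed by -0.04 ± 0.05 in the mean (95% interval -0.14 to 0.07; limma adjusted p = 0.66). Igfals lay between 3.52 and 4.08 in DMSO and between 3.5 and 3.83 with drug, under the array medians throughout. Its mean change was -0.11 ± 0.06 (adjusted p = 0.218). Socs2, the feedback inhibitor of GH signalling, lay between 2.96 and 3.38 in DMSO and between 2.88 and 3.48 with drug, and changed by -0.02 ± 0.05 (adjusted p = 0.893). The values used here carry no detection call, so at these levels the signal of Igfals and Socs2 cannot be told from background.

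The 4 drugs were set side by side at concentrations that differ but share the stated EC20. Only TFMPP and MeOPP had their pairs in the same inferred preparations. Pair 3 lay in preparation 3 for BZP and MDBP and in preparation 4 for TFMPP and MeOPP, and pair 2 of MDBP in preparation 5. In the other differences drug and preparation therefore cannot be fully told apart. In 6 differences between drugs over 14 probe sets, 0 of 84 values passed in limma, the smallest adjusted p was 0.58 and 11 had an unadjusted p under 0.05. Over all genes, 0.0914% differed between BZP and TFMPP and 0% in each of the other 5 differences in limma, where 462 to 1009 genes had an unadjusted p under 0.05. The largest was that of Irs1, where TFMPP minus MDBP was 0.82 ± 0.24 (95% interval 0.32 to 1.32; adjusted p = 0.58). For Igfbp2, BZP minus MeOPP was -0.71 ± 0.23 (95% interval -1.19 to -0.23; adjusted p = 0.596), and Igf1 on 1382599_at gave -0.69 ± 0.20 for MeOPP minus MDBP (-1.11 to -0.28; adjusted p = 0.963). BZP and MDBP are benzylpiperazines, whereas TFMPP and MeOPP are phenylpiperazines. Between the benzyl drugs the difference was 0.45 for Igf1 on 1388469_at (95% interval -0.01 to 0.91) and 0.06 for Irs2 (-0.36 to 0.47). Between the phenyl drugs, TFMPP minus MeOPP, it was 0.29 for Igf1 (-0.17 to 0.75) and 0.24 for Irs2 (-0.17 to 0.66). These intervals are wide, so a missed threshold does not show that the drugs act alike.

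**Figure D3:**
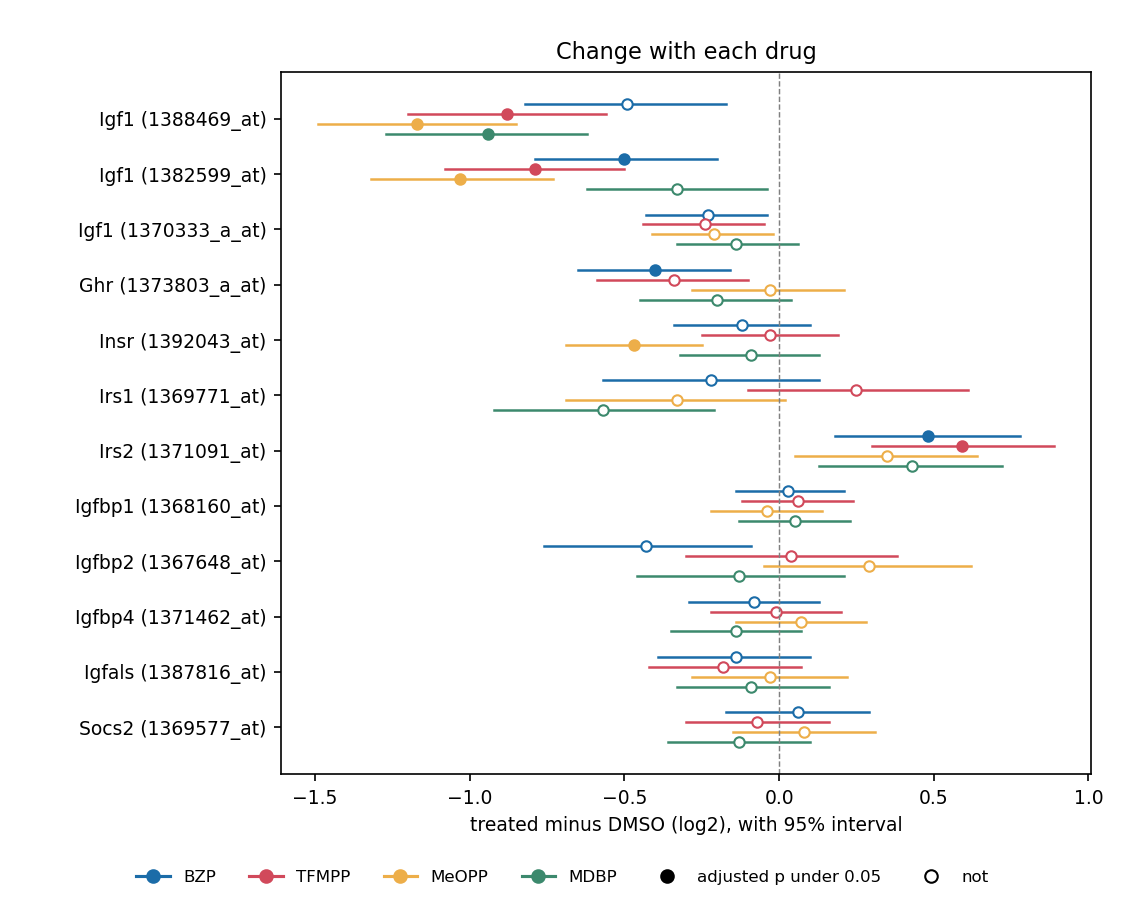
Treated minus DMSO on the log2 scale (x axis) for 12 member probe sets (y axis), with 1 point per drug and its 95% interval from limma (n = 3 pairs per drug). Filled points passed at an adjusted p under 0.05, and the intervals of the 4 drugs overlap on most probe sets, with the widest spread between drugs in Igf1, Igfbp2 and Irs1.

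Other genes of the pathways were read from 4 lists written with earlier results of these data known, and their counts are for the mean of the 4 drugs. Among 14 measured ligands, receptors, binding proteins and proteases of the IGF system, 1 rose and 3 fell (median 0.01, against 0.012 over all genes). Over all genes 18.0% rose and 11.9% fell. Igfbp7, a matrix-bound relative of the binding proteins, fell by -0.35 ± 0.06 (adjusted p = 0.000708; unpaired 0.503), with -0.87 ± 0.13 with BZP and 0.21 ± 0.13 with MeOPP. Htra1, a protease that cleaves binding proteins, fell by -0.24 ± 0.06 in 11 of 12 pairs, and Igf2bp3, an RNA-binding protein of Igf2 mRNA, by -0.21 ± 0.07 in 11 of 12. Both calls were lost with 1 value per preparation (0.112 and 0.0633), and that of Igf2bp3 without the pair terms (0.554) and without any 1 of 6 pairs. Igf2r, the clearance receptor for IGF2, rose by 0.23 ± 0.08 in the mean (adjusted p = 0.0496) and in 8 of 12 pairs. It passed with BZP alone, at 0.59 ± 0.16 (limma adjusted p = 0.0267), and stood at 0.07 with TFMPP, 0.18 with MeOPP and 0.07 with MDBP. The call in the mean was lost with 1 value per preparation (0.081) and on leaving out any 1 pair but pairs 1 and 3 of BZP and pair 1 of MeOPP. The IGF1 receptor Igf1r stood at 0.04 ± 0.06 and Igfbp3 at 0.08 ± 0.08, and neither passed.

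Of 20 measured genes of GH receptor signalling, 2 rose and 2 fell (median 0.03), against 18.0% and 11.9% of all genes. Lepr, the leptin receptor, a cytokine receptor that also signals through Jak2, fell most, by -1.06 ± 0.05 in 12 of 12 pairs (limma adjusted p = 1.84e-09), and it passed with each drug, from -1.24 with BZP and MeOPP to -0.78 with MDBP. Its mean level was 4.68, close to the array medians, on a probe set whose name marks it as shared between transcripts. Bcl6, a transcriptional repressor that shares binding sites with Stat5b, fell by -0.33 ± 0.05 in 11 of 12 pairs. Ptpn6, a phosphatase that acts on Jak2, rose by 0.35 ± 0.06 in 12 of 12. Onecut1, a liver transcription factor, rose by 0.28 ± 0.09 in the mean (adjusted p = 0.034, and 0.221 with 1 value per preparation) and in 8 of 12 pairs. It passed with BZP alone, at 0.78 ± 0.18 (limma adjusted p = 0.0103), and stood at 0.47 with MDBP, 0.04 with TFMPP and -0.19 with MeOPP. The call in the mean was lost without any 1 of 7 pairs (pairs 2 and 3 of BZP, all 3 of TFMPP, pair 2 of MeOPP and pair 3 of MDBP). The core of the pathway did not pass: Jak2 stood at 0.07 ± 0.05, Stat5a at 0.11 ± 0.05, Stat5b at 0.21 ± 0.08 (adjusted p = 0.0563) and the feedback gene Cish at -0.22 ± 0.09 (0.0805).

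Of 34 measured genes of insulin receptor signalling, 8 rose and 5 fell (median 0.03), where over all genes 18.0% rose and 11.9% fell. At these list sizes the counts here and in the lists above are near those shares, so nothing is read from them. Ceacam1, which promotes insulin clearance in liver, fell most, by -0.73 ± 0.04 in 12 of 12 pairs (limma adjusted p = 7.1e-09), and passed with each drug, from -0.89 to -0.56. Enpp1, an inhibitor of the insulin receptor, fell by -0.36 ± 0.06 (adjusted p = 0.000316, or 0.466 without the pair terms), and Foxo1, the transcription factor that insulin restrains, by -0.31 ± 0.06 in 10 of 12 pairs. Tsc1, a brake on mTOR, rose by 0.29 ± 0.05 in 12 of 12 pairs (adjusted p = 0.000374, or 0.4 without the pair terms). Grb10, an adaptor that inhibits the insulin and IGF1 receptors, rose by 0.39 ± 0.12 (adjusted p = 0.0228, and 0.08 with 1 value per preparation) in 7 of 12 pairs, and the call was lost without any 1 of 7 pairs (pairs 2 and 3 of BZP, pair 1 of TFMPP, pairs 1 and 2 of MeOPP and pairs 2 and 3 of MDBP). Akt1 rose by 0.19 ± 0.06 and Akt2 by 0.17 ± 0.06, kinases downstream of the receptor. Without the pair terms their adjusted p-values were 0.204 and 0.271, and the calls were lost without any 1 of 4 and of 9 pairs.

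Of 10 measured hepatic targets of insulin and FOXO1, 2 rose and 7 fell (median -0.38), where over all genes 18.0% rose and 11.9% fell, on a list that is no independent evidence since it was written with earlier results known. Fasn, the fatty acid synthase, rose by 1.18 ± 0.12 and Srebf1, the lipogenic factor that insulin induces, by 0.80 ± 0.06, each in 12 of 12 pairs. Mttp, which loads lipid onto lipoproteins, fell by -1.42 ± 0.08 (limma adjusted p = 5.5e-09) and Angptl4, an inhibitor of lipoprotein lipase, by -1.08 ± 0.09, also in 12 of 12. Pck1, the gluconeogenic enzyme, fell by -0.37 ± 0.05 in 11 of 12 pairs (adjusted p = 7.51e-05, or 0.161 without the pair terms), and Ppargc1a, a coactivator of its transcription measured at a dim 3.75, by -0.39 ± 0.05 in 12 of 12 (0.302 without the pair terms). Hepatocyte markers were lower in the same pairs, as given above.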

How the data were processed

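Expression was measured on Affymetrix rat arrays in 24 samples, from 100 ng of total RNA each. Per the submitters' processing notes the authors used RMA, version not given in the sources used here, and the deposited table holds log2 values after background correction, quantile normalization and summary of each probe set. They were used as deposited. RMA compresses changes of very dim and very bright probe sets, and with so few arrays the precision is limited by their number.

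The table has 31099 probe sets, of which 57 controls were removed. By the platform annotation 20826 probe sets have 1 gene, 436 have several and 9780 have none. All arrays entered 1 limma model (limma 3.58.1, R 4.3.3) across all probe sets, with 12 pair terms and 4 drug terms, which left 8 residual degrees of freedom plus 7.66 from the empirical Bayes prior. Tests were two-sided with Benjamini-Hochberg adjustment, and calls were made at an adjusted p under 0.05. For each gene the brightest probe set, by its mean, stood for the gene. The code was tested on simulated data.

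The pairing comes from the titles of the controls, and deviations of paired arrays from their group means correlated at 0.612 to 0.802. Treated arrays were not compared with other controls of their preparation, so these correlations do not test the named pairing. DMSO arrays were divided into 5 sets by average linkage, correlating at 0.9943 to 0.9971 within and 0.9622 to 0.9919 between sets. The members, lists and tests were chosen with earlier results of these data known. Named genes were all members, the 2 largest called rises and falls of each list, and the 3 genes most like Igf1 and Igfbp1. Igf1r, Igfbp3, Jak2, Stat5a, Stat5b, Cish, Igf2bp3, Foxo1, Akt1, Akt2, Pck1, Ppargc1a and the cell markers named were added after their values were seen. Alternatives were the fit without pair terms, the arrays of 1 drug, quantile normalization repeated, a mean log2 value of at least 5, a robust prior with trend, averaged probe sets, each pair left out, and 1 value per preparation. Plots used matplotlib 3.10.9.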

Additional observations from a re-analysis of the deposited data

How the results depend on the processing

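BZP had 2 member genes called, TFMPP and MeOPP 1 each, MDBP 0 and the mean of the drugs 4. In the fit with no replicate block, which ignores the pairs, it was 0 in each of these in limma, and 16 of 16 called probe set values kept their direction there while 0 kept their call. The cause was not tested. With the arrays of the drug alone, which leaves fewer arrays, it was 0 with BZP and 1 with MDBP, and with the robust, trended prior 1 with MDBP. When each gene's probe sets were averaged it was 2 with TFMPP, 2 with MDBP and 2 in the mean. Leaving out 1 pair gave 0 to 2 for BZP, 0 to 0 for TFMPP, 0 to 1 for both MeOPP and MDBP, and 3 to 5 for the mean. Repeated quantile normalization and the robust prior kept all 16 called values, the filter on dim probe sets all 12 it could test, the arrays of the drug alone 7 of 10, 1 value per preparation 5 of 6, and leaving out a pair 85 of 102. No called value changed sign under these alternatives. Of 30 called genes of the other lists, an alternative added after the data were seen, 12 stayed called without the pair terms, 16 with 1 value per preparation and 19 whichever pair was left out. Socs2, Igfals, Irs1, the dimmer probe set of Ghr and probe set 1382599_at of Igf1 lie under or near the array medians, which limits what could be measured there.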

Other observations

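The cytochromes P450 whose DMSO levels ran closest to those of Igf1 were themselves lower with the drugs. Cyp2c11 lay between 6.81 and 9.91 in the 12 DMSO arrays and fell by -1.24 ± 0.10 in the mean of the drugs (SE, 12 of 12 pairs; limma adjusted p = 3.37e-07). Cyp2c13 lay between 6.66 and 10.46 and fell by -0.57 ± 0.08 (11 of 12 pairs; adjusted p = 5.59e-05), on a probe set whose name marks it as shared between transcripts. Smim14, the closest of all, lay between 10.28 and 11.58 and changed by -0.19 ± 0.05 (9 of 12 pairs; adjusted p = 0.0134). These genes were picked for their likeness to Igf1 in the controls.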
